A study of Mus musculus with 16 samples.

Results

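The well-counted coding genes of skeletal muscle are the protein-coding genes whose mean level over the 8 muscle libraries was at least 5 CPM (the reads on a gene out of every 1000000 reads on all genes of its library). This rule took 7572 genes, of 14545 coding genes and 21011 genes of any kind in the muscle table. It used the mean over both treatment groups and no difference between them. The comparison asks which functions of an aged muscle differ after treatment with BAY, and whether they still differ when 1 vehicle library that carries fat genes is left out. At the limit, Parp9, Eml4 and Derl2 were just inside with mean levels of 5.001, 5.002 and 5.003 CPM, and Mtx1 and Exph5 were just outside at 4.992 and 4.994 CPM.

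The libraries came from the tibialis anterior (TA), a mixed shin muscle of mostly fast fibres, of female C57BL/6 mice that were 18 months old when treatment began. The VEH group was given ethanol, Solutol and water by gavage, and the BAY group received BAY2416964, an antagonist of the aryl hydrocarbon receptor (AhR), at 30 mg/kg in the same vehicle, 5 days a week for 8 weeks. Each group had 4 libraries, 1 per mouse, of polyadenylated RNA. The mice carried no transgene or deletion, both groups went through the same gavage, and the drug reached the whole animal, so a change in the TA need not have begun there. Only females and 1 muscle were sequenced, and the time of day of tissue collection is not given in the sources used here.

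AhR is a transcription factor that waits in the cytoplasm with the chaperone HSP90 and partner proteins, enters the nucleus when it binds a ligand such as kynurenine, and pairs there with ARNT to switch on detoxifying enzymes and its own repressors. Muscle fibres are long fused cells whose nuclei answer nerve activity, hormones, feeding state and an internal daily clock, and most of their RNA codes for contractile and energy-producing proteins. A whole TA also holds endothelium, fibroblasts, fat cells, nerve sheath and blood, so each value is a mixture.

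Between 6134429 and 9260768 reads lay on genes in each library, so 5 CPM stood for 30.7 to 46.3 reads. The members held 64.7 to 80.8% of the reads in the VEH libraries and 74.0 to 82.9% in the BAY libraries, and their median level was 16.1 CPM. Ribosomal RNA took 12.2 to 28.4% of the reads in VEH and 11.6 to 19.3% in BAY. The fibre markers (12 of 12 were members, among them Acta1, Ckm and Myh4) summed to between 252020 and 367700 CPM in every library, so the label of skeletal muscle held in all 8. The column for VEH replicate 3 is named as a replacement, and nothing in the sources used here says what was replaced.

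VEH replicate 3 stood apart from the other 7 libraries. Of 14 adipocyte markers, 13 were highest in it, and their summed level was 667 CPM against 294 to 447 CPM in the other libraries. Perilipin 1 (Plin1), which coats fat droplets, was at 37.9 CPM in VEH replicate 3 and at most at 2.33 CPM elsewhere, adipsin (Cfd) at 112.9 CPM against at most 4.66, and adiponectin (Adipoq, under the level limit for members) at 16.4 CPM against at most 1.05. Fibroblast markers summed to 633 CPM against 182 to 251, tendon markers to 135.3 CPM against 28.9 to 65.5, macrophage markers to 47.9 CPM against 15.6 to 23.6, and Schwann cell markers to 75.8 CPM against 25.4 to 48.0. Endothelial markers, at 526 CPM against 517 to 712, did not stand out. The library was the highest of the 8 for 3168 members (41.8%), where any other library was the highest for 80 to 1308. In bulk tissue, fewer cells of a type and less RNA per cell cannot be told apart. Results are therefore given with all 8 libraries and with the 7 that remain without VEH replicate 3.

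**Figure D1:**
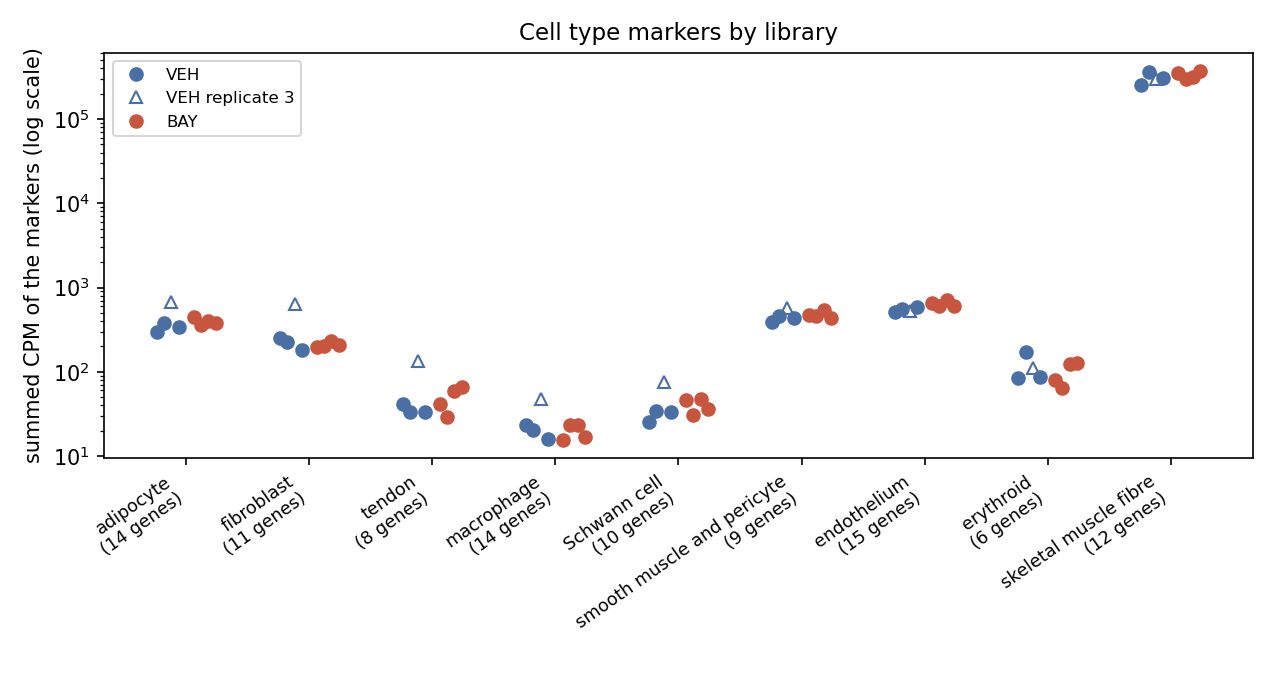
Summed CPM of each marker list (log axis) in each library, with 3 VEH libraries as blue points, VEH replicate 3 as an open triangle and the 4 BAY libraries as red points. VEH replicate 3 lies above the other 7 libraries for adipocyte (667 CPM against at most 447), fibroblast (633 against at most 251), tendon, macrophage and Schwann cell markers and slightly above them for smooth muscle, and among them for endothelium, erythroid cells and muscle fibre.

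A gradient with base composition ran through the whole comparison. For 7566 of the 7572 members the percentage of G and C in the longest transcript was known. Over these members, Spearman's rho between GC content and the log2 fold change (BAY minus VEH, so a value above 0 means a higher level in BAY) was 0.56 with all 8 libraries and 0.55 without VEH replicate 3. This is a description across genes, which share their libraries and are not replicates. In 5 bins of equal size from the poorest in GC to the richest, the median log2 fold change was -0.17, -0.04, 0.05, 0.14 and 0.26. In the bin poorest in GC (31.9 to 44.0%), 11 members were higher and 209 lower at P under 0.05, and in the richest (54.7 to 80.6%) 500 were higher and 6 lower. The same gradient could be read in each library as the median level of the richest bin minus that of the poorest, each relative to the genes' means over the 8 libraries. It was -0.23, -0.05, -0.41 and -0.18 on the log2 scale in VEH replicates 1 to 4 and 0.12, 0.12, 0.13 and 0.51 in BAY replicates 1 to 4, so the groups did not overlap. Since the gradient differed between the groups, a source in the libraries and one in the cells cannot be told apart. Results are therefore also given after each library was corrected for its own trend with GC content, a step that removes the gradient whatever its source. The corrected values carry a steeper gradient with length. Spearman's rho between the length of the longest transcript and the log2 fold change was 0.10 before and 0.30 after the correction, and in 5 bins by length, of the members with the shortest transcripts (up to 3259 bases) 69 fell and 131 rose before it and 214 (14.1%) fell and 59 rose after it, while of those with the longest 33 fell before it and 34 (2.25%) after it. Counts of short genes after GC correction are to be read beside this.

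**Figure D2:**
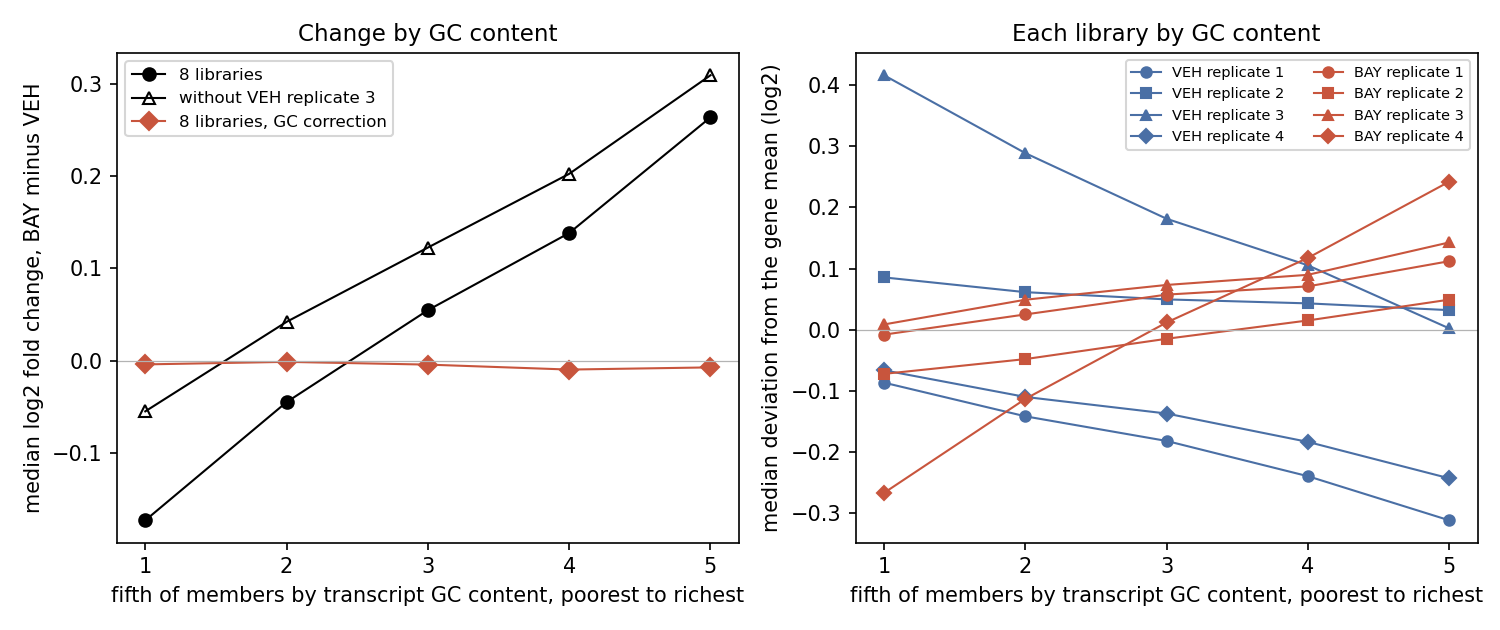
Left, median log2 fold change (BAY minus VEH) in 5 equal bins of members by transcript GC content, with all 8 libraries, without VEH replicate 3 and after GC correction. Right, the median deviation of each library from the gene means (log2) in the same bins. With all 8 libraries the medians climb from -0.17 to 0.26, and across the bins the 4 VEH lines descend while the 4 BAY lines climb.

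The members differed little as a whole and more often upward. The median log2 fold change was 0.05, the 5th and the 95th percentile were -0.41 and 0.52, and 6949 members (91.8%) differed by less than 0.5 in either direction. A gene is said here to have risen or fallen when its unadjusted P was under 0.05 in limma, and to have been called when it also differed by at least 2-fold. By this measure 966 members rose, 12.8% of those tested, and 328 fell, 4.33% (all 21011 genes: 6.71 and 3.07%). After adjustment over all 21011 genes (Benjamini-Hochberg), no member was under 0.05, and the smallest adjusted P was 0.184. Without VEH replicate 3 the smallest was 0.325, and after GC correction 0.183. Every gene described below as risen or fallen therefore rests on an unadjusted P, and the adjusted P printed beside it is limma's over all genes.

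Of the 1294 members at P under 0.05, 74.7% were higher in BAY. When each library was first centred on the median of the members, 873 were higher and 791 lower, so the share was 52.5%. Without VEH replicate 3, 1195 members rose (15.8%) and 152 fell (2.01%), against 8.15 and 1.65% of all genes, and centring gave 639 higher and 582 lower, moving the share from 88.7 to 52.3%. In that comparison the median member stood at 0.12, and a log2 fold change there is read relative to 0.12. After GC correction 537 rose (7.09%) and 535 fell (7.07%), with 4.36% of all genes in each direction. In all 3 fits (all 8 libraries, without VEH replicate 3, GC corrected) 383 members rose and 134 fell.

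Few members reached 2-fold. With all 8 libraries 26 members (0.343%) were called higher and 11 (0.145%) lower, where 1.33 and 1.09% of all genes were called. Without VEH replicate 3 the calls were 23 higher (0.304%) and 6 lower (0.0792%), against 1.66 and 0.704% of all genes. After GC correction they were 14 (0.185%) and 9 (0.119%), against 1.06 and 1.14%. The genes called in all 3 fits numbered 13 higher and 3 lower. Among them, Gm10800 (higher) and Septin2 (lower) had no known GC content and were given the members' median. Their calls after GC correction therefore say nothing on a gradient with their own GC content. Of the 26 called higher, 7 (Gm10800, Ciart, Junb, Tas1r3, Cfap74, Pde4c and Gm38431) had a VEH mean under 5 CPM and so met the level limit through BAY, where they were high. Of the 11 called lower, 5 (Plin1, Tmem267, Pex13, Vbp1 and B3galt2) had a BAY mean under 5 CPM and met it through VEH. Among all members 162 had such a VEH mean and 133 such a BAY mean. A gene of this kind had to differ to be counted, and its values are given as a description. For 495 members (6.54%) every BAY library was above every VEH library, and for 159 (2.1%) every one was below. The same shares over all genes were 4.2 and 1.53%. Of the 328 members that fell, 293 had their highest VEH value in VEH replicate 3, and of the 966 that rose, 473 had their lowest BAY value in BAY replicate 2. Over all members VEH replicate 3 was the highest of the 8 libraries for 41.8%. BAY replicate 2 had the lowest mean log2 level of the BAY libraries over all members, 4.26 against 4.28 to 4.36. Those counts were not taken over all members, so they are not read as particular to the changed genes.

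**Figure D3:**
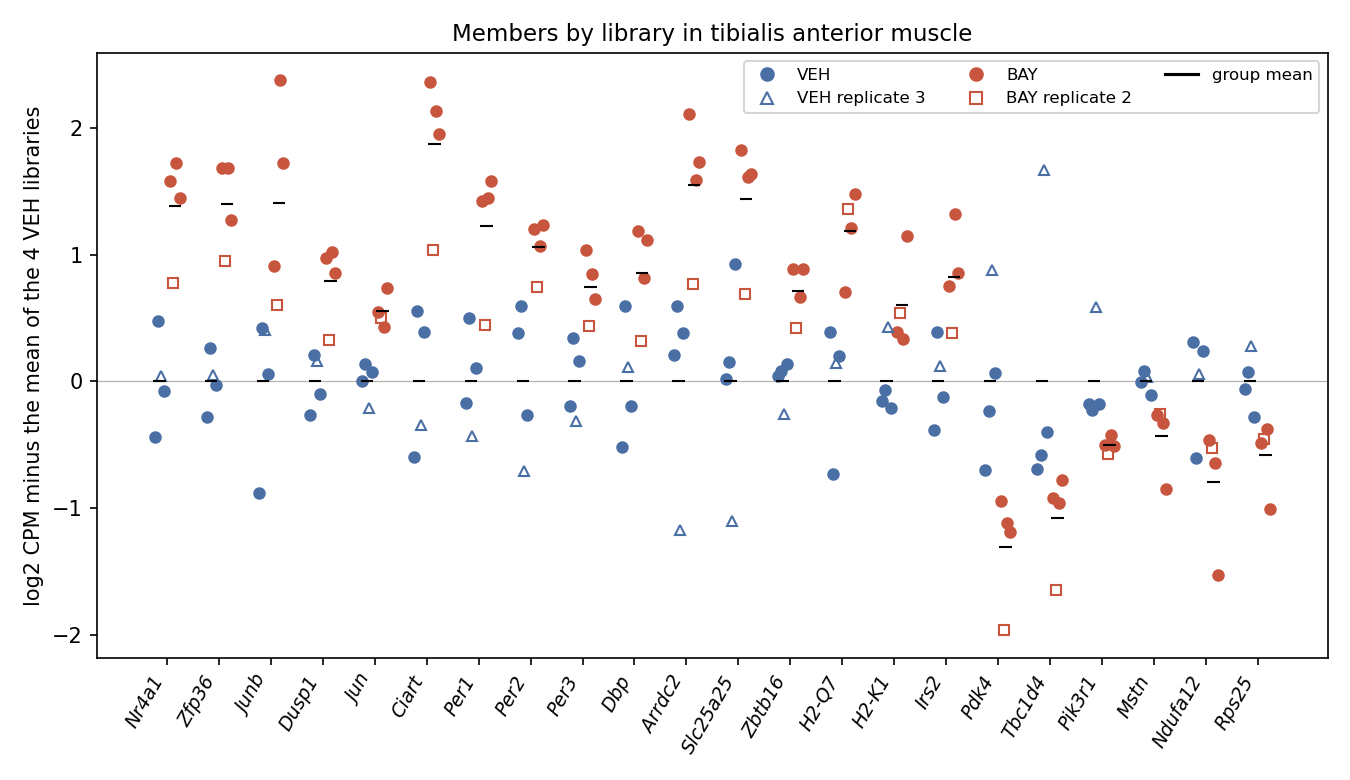
Log2 CPM of 22 members in each library, minus the mean of the 4 VEH libraries, with VEH in blue (replicate 3 as a triangle), BAY in red (replicate 2 as a square) and group means as bars. Nr4a1, Zfp36, Junb, Dusp1 and Ciart lie higher in all 4 BAY libraries than in any VEH library and Pdk4 lies lower, BAY replicate 2 is the lowest BAY library for most of them, and Tbc1d4 shows 1 high value, 102 CPM, in VEH replicate 3.

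The immediate early genes were the list with the highest median. These genes code mostly for transcription factors and for proteins that shorten signals, and a cell transcribes them within minutes of a stimulus without making new protein first. Of 25 in the table, 14 were members, and their median log2 fold change was 0.81, beside 0.05 over all members. Of the 14, 10 rose and 0 fell (71.4 and 0%, beside 12.8 and 4.33% of all members), and Junb alone of them met the level limit only through BAY. Without VEH replicate 3, 11 rose (78.6%, beside 15.8%, median 0.70), and after GC correction 9 (64.3%, beside 7.09%, median 0.54).

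Nr4a1 (ENSMUSG00000023034, mm39 chromosome 15, 101152150 to 101172677), an orphan nuclear receptor that muscle makes on adrenergic stimulation and exercise, had 34.6, 65.4, 48.5 and 44.5 CPM in VEH replicates 1 to 4 and 140.2, 80.4, 156 and 128 CPM in BAY replicates 1 to 4. The means were 48.2 ± 12.8 and 126 ± 32.4 CPM (SD, n = 4). All BAY libraries lay above all VEH libraries, and BAY replicate 2 was the lowest of its group. The log2 fold change was 1.38 (SE 0.21, limma adjusted P = 0.184), 1.40 without VEH replicate 3 and 1.18 after GC correction. Zfp36 (ENSMUSG00000044786, chromosome 7, 28076209 to 28079679), which binds AU-rich messages of cytokines and early genes and has them degraded, had 4.31, 6.27, 5.40 and 5.13 CPM in VEH and 16.8, 10.1, 16.8 and 12.6 CPM in BAY. Here too the groups were apart, with a log2 fold change of 1.40 (SE 0.20, adjusted P = 0.184). For both genes the exact permutation test over the 8 libraries gave P = 0.0286, the smallest that 4 against 4 allows.

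Junb (ENSMUSG00000052837, chromosome 8, 85701113 to 85705348), an AP-1 subunit that is known in muscle for sustaining fibre size, was at 1.86, 4.60, 4.53 and 3.58 CPM in VEH and at 6.47, 5.22, 17.8 and 11.4 CPM in BAY. The groups did not overlap, but BAY replicates 1 and 2 came near the VEH values. Its log2 fold change was 1.40 (SE 0.38, adjusted P = 0.295). Egr1, a zinc finger factor of growth signalling, was at 1.86, 3.90, 7.99 and 6.56 CPM in VEH and 13.3, 5.54, 20.6 and 8.55 CPM in BAY, so that BAY replicate 2 lay within the VEH range (log2 fold change 1.27, SE 0.45, adjusted P = 0.387). Egr1, Nr4a1 and Zfp36, which met the level limit in both groups, were called in all 3 fits. Junb was as well, but with a VEH mean under 5 CPM. The call of Egr1 was less firm, as it was under 2-fold without VEH replicate 1 (0.86) or without BAY replicate 3 (0.96).

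The other 6 that rose did so by less than 2-fold. Klf2, a factor of flow-exposed endothelium, had a log2 fold change of 0.83, and Dusp1, a phosphatase that switches off MAP kinases, had 0.79. In both, no BAY library fell below a VEH library. The antiproliferative gene Btg2 had 0.87 and was called only without VEH replicate 3 (1.05). Fosl2 and Jun, both AP-1 subunits, had 0.65 and 0.55, and Jun, the most abundant of the list, was at 88.0, 96.2, 75.9 and 92.1 CPM in VEH and 128, 124, 118 and 146 CPM in BAY. Klf4 had 0.51, and it was the 1 of the 10 that did not pass after GC correction. Fos itself averaged 4.204 CPM and was under the level limit.

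Part of the clock genes rose. In the daily clock, BMAL1 and CLOCK drive genes through E-box elements, and PER, CRY and other products then repress them, so activators and repressors peak at different hours. All 14 repressors and outputs on the list were members. Of these, 8 rose and 0 fell (57.1 and 0%, beside 12.8 and 4.33% of all members, median log2 fold change 0.39). Without VEH replicate 3, 9 rose (64.3%, beside 15.8%), and after GC correction 7 (50%, beside 7.09%). None of the 4 activators among the members rose or fell with all 8 libraries (median -0.17), Clock itself standing at -0.19. After GC correction 1 of them fell.

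Ciart (ENSMUSG00000038550, chromosome 3, 95785815 to 95789564), a repressor of CLOCK and BMAL1, was a member through its BAY libraries. It was at 1.63, 3.62, 1.94 and 3.22 CPM in VEH and at 12.7, 5.06, 10.8 and 9.54 CPM in BAY, with BAY replicate 2 the lowest of its group and no overlap. The log2 fold change was 1.87 (SE 0.33, adjusted P = 0.206), 1.76 without VEH replicate 3 and 1.73 after GC correction. Per1 (ENSMUSG00000020893, chromosome 11, 68986043 to 69000787), a core repressor that glucocorticoids and cAMP also induce, was at 27.2, 43.2, 22.8 and 32.9 CPM in VEH and 82.3, 41.8, 83.6 and 91.7 CPM in BAY. Its BAY replicate 2 lay below VEH replicate 2, and the other 3 BAY libraries lay far above the VEH range (log2 fold change 1.23, SE 0.24, adjusted P = 0.206). After GC correction it had 0.99, just short of 2-fold. Per2 (9.89, 11.4, 4.64 and 6.32 CPM in VEH, 17.5, 12.7, 15.9 and 17.8 CPM in BAY) had a log2 fold change of 1.06 with no overlap, which became 0.82 without VEH replicate 3, the library in which Per2 was lowest, and 0.88 after GC correction.

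Per3 and the output factor Dbp rose with log2 fold changes of 0.74 and 0.86. Dbp is a PAR bZIP factor with high daily amplitude, and its values were 28.4, 61.3, 44.0 and 35.6 CPM in VEH and 92.6, 50.7, 71.4 and 88.1 CPM in BAY, with BAY replicate 2 again inside the VEH range. Bhlhe41 and Bhlhe40, which compete at E-boxes, had 0.54 and 0.42, and Tef, a relative of Dbp, had 0.35. After GC correction Tef had 0.21 and did not pass, and the other 7 still rose.

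Promoters of 5 of these genes or of other called members are printed because they hold the short elements that are textbook marks of the clock (the E-box CACGTG), of cAMP signalling (the CRE TGACGTCA and its core TGACG, which reads CGTCA on the other strand) and of serum response (the CArG box). Each is the 250 bases before a RefSeq gene start, read 5′ to 3′ on the gene's strand, placed on GRCm39 by exact match of the RefSeq sequence (a GRCm38.p6 table) at chr3:95789541-95789790 (- strand, Ciart), chr11:68989525-68989774 (+ strand, Per1), chr15:101164477-101164726 (+ strand, Nr4a1), chr2:32314079-32314328 (- strand, Slc25a25, at 1 of its 3 starts) and chr7:28078654-28078903 (- strand, Zfp36). Capitals mark the element named in the sentence after the sequences.
Ciart: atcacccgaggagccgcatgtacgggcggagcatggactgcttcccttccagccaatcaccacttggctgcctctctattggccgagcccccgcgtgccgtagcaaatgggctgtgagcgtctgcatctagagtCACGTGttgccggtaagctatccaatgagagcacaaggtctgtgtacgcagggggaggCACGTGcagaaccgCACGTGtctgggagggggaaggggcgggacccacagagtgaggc
Per1: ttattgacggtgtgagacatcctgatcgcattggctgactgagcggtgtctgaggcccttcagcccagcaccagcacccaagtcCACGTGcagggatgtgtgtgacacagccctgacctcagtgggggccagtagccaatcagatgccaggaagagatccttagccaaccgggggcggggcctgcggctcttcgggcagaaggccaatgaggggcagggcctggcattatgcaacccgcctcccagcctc
Nr4a1: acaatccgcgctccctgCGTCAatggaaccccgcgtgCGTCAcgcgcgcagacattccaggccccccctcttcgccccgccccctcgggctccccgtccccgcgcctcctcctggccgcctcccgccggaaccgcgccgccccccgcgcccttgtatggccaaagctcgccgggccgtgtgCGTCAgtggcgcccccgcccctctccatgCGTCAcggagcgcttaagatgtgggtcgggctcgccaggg
Slc25a25: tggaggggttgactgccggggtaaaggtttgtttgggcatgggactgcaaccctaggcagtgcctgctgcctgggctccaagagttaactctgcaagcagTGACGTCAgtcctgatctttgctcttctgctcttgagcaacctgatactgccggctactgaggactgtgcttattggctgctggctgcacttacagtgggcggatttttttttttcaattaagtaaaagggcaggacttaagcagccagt
Zfp36: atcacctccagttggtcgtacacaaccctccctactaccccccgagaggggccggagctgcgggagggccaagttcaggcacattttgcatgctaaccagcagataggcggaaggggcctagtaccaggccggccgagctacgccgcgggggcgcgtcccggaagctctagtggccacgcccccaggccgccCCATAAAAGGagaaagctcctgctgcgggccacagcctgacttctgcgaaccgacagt
The Ciart window held 3 E-boxes, beginning 116, 58 and 44 bases before the start, and the Per1 window 1, at 166 bases. Nr4a1 held 4 copies of TGACG (233, 213, 69 and 40 bases before the start), Slc25a25 1 full CRE at 150 bases and Zfp36 1 CArG box at 58 bases. Both strands were searched, and every full CRE also counts as a TGACG. Over all 32851 promoters of the RefSeq table, 6.02% held the E-box, 1.55% the CRE, 17.8% TGACG and 1.47% the CArG box. Counted by gene, 5 of the 20 called-higher members with a promoter in the table held an E-box (25%), beside 10.9% of the well-counted coding genes, and 11 held a TGACG (55%), beside 33%. The full CRE was in 1 of the 20 (5%), beside 3.26%, and the CArG box in 2 (10%), beside 1.61%. Of the 10 called-lower members with a promoter, 1 held an E-box (10%), 4 a TGACG (40%), 1 the CRE (10%) and none the CArG box. The core of the AhR element, GCGTG, was in 12 of the 20 called higher (60%) and 5 of the 10 called lower (50%), beside 53.2%. It contains none of the other elements. The called members were picked from these same data, and 7 of the 26 called higher, Ciart among them, met the level limit only through BAY. The well-counted coding genes were not matched to them in GC content. These shares are therefore a description, and their difference was not tested. A match is a run of letters and not a known binding site, and nothing in these data measured a factor's binding.

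Genes that glucocorticoids are known to induce formed a further group, which shares Per1 with the clock list and Dusp1 with the immediate early list. Of 15 members, 9 rose and 1 fell (60 and 6.67%, beside 12.8 and 4.33% of all members, median 0.42). The same counts came without VEH replicate 3, and 7 rose and 1 fell after GC correction (46.7 and 6.67%, beside 7.09 and 7.07%). Cebpd, a transcription factor of the acute response, was at 5.47, 7.10, 9.38 and 7.73 CPM in VEH and at 17.9, 6.51, 21.3 and 19.9 CPM in BAY, so that 3 BAY libraries were above the VEH range and BAY replicate 2 was inside it (log2 fold change 1.03, SE 0.32, adjusted P = 0.335, and 0.92 after GC correction, under 2-fold). Zbtb16 (PLZF) was at 122, 125, 99.0 and 129.8 CPM in VEH and 218, 158, 188 and 218 CPM in BAY with no overlap (log2 fold change 0.71, SE 0.14, adjusted P = 0.206). Klf15, which directs amino acid breakdown in muscle, had 0.54 with no overlap. Pik3r1, the regulatory subunit of PI3 kinase, was the member that fell (-0.50, adjusted P = 0.362), and its VEH replicate 3 value of 87.3 CPM stood above 49.5 to 51.3 CPM in the other VEH libraries. Without that library Pik3r1 still fell, by a log2 fold change of -0.31.

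BAY replicate 2 was the lowest BAY library for 16 of the 26 members called higher, and how often it was over all members was not counted. Its mean log2 CPM over the glucocorticoid-induced members was 5.19, where the other 3 BAY libraries lay between 5.63 and 5.64 and the VEH libraries between 4.89 and 5.29.

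Other called members rose with these lists. Arrdc2 (ENSMUSG00000002910, chromosome 8, 71287773 to 71292365), an arrestin-domain protein of receptor trafficking, was at 29.6, 38.6, 11.3 and 33.3 CPM in VEH and 110.4, 43.7, 76.9 and 85.0 CPM in BAY. VEH replicate 3 was the lowest library by far, and the log2 fold change went from 1.55 (SE 0.34, adjusted P = 0.239) with it to 1.16 without it, where it still rose. Slc25a25 (ENSMUSG00000026819, chromosome 2, 32304499 to 32341458), a mitochondrial ATP-Mg/phosphate carrier, was at 24.9, 27.3, 11.4 and 46.6 CPM in VEH and 87.1, 39.5, 75.1 and 76.3 CPM in BAY. Its BAY replicate 2 lay under VEH replicate 4, and the log2 fold change was 1.44 with and 1.07 without VEH replicate 3. Gadd45g, a stress sensor, was at 10.4, 17.4, 10.04 and 14.8 CPM in VEH and 30.4, 20.6, 24.8 and 42.8 CPM in BAY, with no overlap (log2 fold change 1.16, adjusted P = 0.206), and 0.84 after GC correction, where it was no longer called.

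Pde4c, which degrades cAMP, had a log2 fold change of 1.13 (adjusted P = 0.206) without overlap, and 0.87 after GC correction, where it was no longer called. Nor did the groups overlap in Tas1r3, a subunit of the sweet and umami taste receptors (1.23, adjusted P = 0.328), or in Cfap74, a cilium protein (1.22, adjusted P = 0.284). All 3 had VEH means under 5 CPM, 3.94, 3.54 and 3.29 CPM, and BAY means of 8.41, 7.26 and 7.42 CPM. Tas1r3 was lowest in VEH replicate 3 at 1.19 CPM and had 0.77 without it. Prune2, which also did not overlap, owed most of its size to the same library. It was at 48.2, 38.6, 4.53 and 59.0 CPM in VEH and at 65.0, 62.8, 69.4 and 59.6 CPM in BAY, and its log2 fold change of 1.27 (adjusted P = 0.505) became 0.42 without VEH replicate 3. After GC correction of all 8 libraries it had 1.27 and did not pass. The remaining members called higher, named to complete the set, were Gm10800, Otud1, Coq10b, Gpr17 and Gm38431, beside those described by function.

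Some genes of antigen presentation rose. MHC class I molecules show peptides from inside a cell to T cells, and interferon raises them. Of 11 members, 5 rose and 0 fell (45.5 and 0%, beside 12.8 and 4.33% of all members, median log2 fold change 0.40). Without VEH replicate 3, 7 rose (63.6%, beside 15.8%, median 0.50), and 4 after GC correction (36.4%, beside 7.09%, median 0.20). H2-Q7 was at 7.66, 3.53, 6.48 and 6.71 CPM in VEH and 9.54, 15.0, 13.5 and 16.3 CPM in BAY. H2-Q4 was at 8.57, 5.16, 5.94 and 7.73 CPM in VEH and 10.99, 15.5, 11.98 and 17.3 CPM in BAY. Neither overlapped, with log2 fold changes of 1.19 (adjusted P = 0.206) and 1.03 (adjusted P = 0.206). After GC correction H2-Q7 had 1.06 and was still called, and H2-Q4 had 0.84 and was not. H2-Q6 had 1.00 and was called only without VEH replicate 3 (1.05). These Qa genes are near-identical copies, so the split of reads among them is uncertain, and they cannot be counted as 3 separate results. H2-K1, the classical class I heavy chain, was at 28.2, 29.98, 42.3 and 27.1 CPM in VEH and 41.0, 45.5, 39.5 and 69.3 CPM in BAY, and VEH replicate 3 lay inside the BAY range (log2 fold change 0.60, adjusted P = 0.342).

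Among interferon-induced genes, 3 of 13 members rose and 0 fell (23.1 and 0%, beside 12.8 and 4.33% of all members, median 0.24). Gbp4, a guanylate-binding protein of cell defence, was at 6.75, 3.35, 5.33 and 11.3 CPM in VEH and 11.2, 16.0, 9.55 and 16.3 CPM in BAY, with VEH replicate 4 inside the BAY range (log2 fold change 1.09, SE 0.31, adjusted P = 0.311). It was called in all 3 fits. Rnf213 and the factor Irf1 had 0.39 (adjusted P = 0.335) and 0.46 (adjusted P = 0.5001), both with no overlap, and Irf1 did not pass after GC correction. Macrophage markers were nearly all under the level limit (1 of 14 was a member) and, VEH replicate 3 aside, summed to 15.7 to 23.6 CPM in VEH and 15.6 to 23.3 CPM in BAY.

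Among genes of fuel use, Pdk4 fell the most of the members that did not overlap. Pyruvate dehydrogenase kinase 4 closes the entry of pyruvate into the mitochondrion, and fasting, fatty acids and FOXO1 raise it. Pdk4 (ENSMUSG00000019577, chromosome 6, 5483351 to 5496310) was at 68.2, 94.2, 204 and 116 CPM in VEH and 57.5, 28.4, 51.1 and 48.5 CPM in BAY. Every BAY library was under every VEH library, and VEH replicate 3 was the highest. The log2 fold change was -1.31 (SE 0.29, adjusted P = 0.230), -1.02 without VEH replicate 3 and -1.21 after GC correction. Foxo1 itself rose, at 21.5, 27.3, 25.6 and 19.4 CPM in VEH and 30.5, 27.4, 33.1 and 35.3 CPM in BAY (log2 fold change 0.44, adjusted P = 0.355). Of 16 members of the fasting fuel switch, 1 rose and 2 fell (median -0.06). Without VEH replicate 3, 2 rose and 1 fell (median 0.04), and after GC correction 1 rose and 5 fell (median -0.23). The mean log2 level of the list was highest in VEH replicate 3, at 5.76 against 4.96 to 5.30 in the other libraries.

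The enzymes of fatty acid oxidation stood out in VEH replicate 3. Of 21 members, 1 fell and 0 rose, the median was -0.23 with all 8 libraries and -0.03 without VEH replicate 3, where neither direction had a member. The mean log2 level of the list was 6.05 in VEH replicate 3, above the other VEH libraries. Hadha, the large subunit of the trifunctional enzyme, was at 132, 126, 206 and 133 CPM in VEH and 127, 121, 142 and 111 CPM in BAY, and gave -0.23 (adjusted P = 0.659) with and -0.07 without that library. After GC correction of all 8 libraries, 6 fell (median -0.27), with a median transcript length of 3477 bases.

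The nuclear-coded parts of oxidative metabolism lay below the members' median. With all 8 libraries the shares that fell were 13% in the tricarboxylic acid cycle, 21.1% in complex I, 21.4% in complexes II and III, 8.33% in complex IV and 25% in ATP synthase, beside 4.33% of all members, and without VEH replicate 3 they were 4.35, 7.89, 0, 8.33 and 12.5%, beside 2.01%. Of 23 members of the tricarboxylic acid cycle 3 fell and 0 rose (median -0.22), and without VEH replicate 3 1 fell (median -0.07). That 1 was Idh3a, a subunit of isocitrate dehydrogenase, at 191, 175, 246 and 177 CPM in VEH and 144, 173, 151 and 146 CPM in BAY (log2 fold change -0.35, adjusted P = 0.430). Of 38 complex I subunits 8 fell and 0 rose (median -0.16), 3 fell without VEH replicate 3 (median -0.09) and 13 after GC correction (median -0.20). Their transcripts are short, with a median of 2898.5 bases against 4913.5 over all members, and the part of length in the corrected count was not tested. Ndufa12 had -0.79 (adjusted P = 0.344), Ndufa1 -0.59 (adjusted P = 0.328) and Ndufs6 -0.44 (adjusted P = 0.359), and the latter pair did not overlap.

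Of complexes II and III 3 of 14 members fell, of complex IV 1 of 12 and of ATP synthase 4 of 16, and none rose. Without VEH replicate 3 the counts were 0, 1 and 2. Cox7a2, a small complex IV subunit, was at 14.1, 13.7, 11.6 and 9.66 CPM in VEH and 6.74, 8.81, 8.13 and 6.03 CPM in BAY, with no overlap (log2 fold change -0.72, adjusted P = 0.295). Atp5k, a subunit that holds ATP synthase dimers together, was at 32.2, 19.4, 22.4 and 22.9 CPM in VEH and 9.77, 18.8, 16.0 and 13.2 CPM in BAY, also with no overlap (-0.76, adjusted P = 0.297). Many of these subunits have processed pseudogenes that can share reads.

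The 13 subunits coded by the mitochondrial genome had a median of -0.37 (-0.39 without VEH replicate 3), and 2 fell. Their median GC content was 37.1%, against 49.3% over all members, and after GC correction the median was -0.11. Of these, mt-Atp8 was called lower, at 706, 399, 603 and 894 CPM in VEH and 308, 383, 487 and 136 CPM in BAY, with a log2 fold change of -1.07 (adjusted P = 0.338) that became -0.80 after GC correction, where it was no longer called. It shares bases with mt-Atp6, so its value is uncertain.

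The ribosomal proteins also lay under the median of the members. Of 51 cytosolic members 5 fell and 0 rose (median -0.16), 3 fell without VEH replicate 3 (median -0.07), and 17 fell after GC correction (median -0.26). These transcripts are shorter still, with a median of 1947 bases, and the part of length in the corrected count was again not tested. Rps25 had -0.58 (adjusted P = 0.319) and Rpl21 -0.41 (adjusted P = 0.387), neither with overlap. Of 57 translation factors 1 rose and 7 fell (1.75 and 12.3%, beside 12.8 and 4.33% of all members). Without VEH replicate 3, 3 rose and 4 fell, and after GC correction 0 rose and 12 fell. Those that fell with all 8 libraries included the initiation factors Eif3e (-0.59) and Eif1ax (-0.59). In both, VEH replicate 3 was the highest library, and the values without it were -0.34 and -0.38.

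The splicing regulators, which were poor in GC, rose about as often as all members until the GC correction. SR proteins and hnRNPs bind exons and introns and decide which are kept. Their median GC content was 42.1%, against 49.3% over all members, and of 36 members 5 rose and 1 fell (median 0.14, against 0.05 over all members), 6 rose and 0 fell without VEH replicate 3 (median 0.11, against 0.12 over all members), and 9 rose and 0 fell after GC correction (median 0.21, against -0.00). The list's median was thus above that of all members with all 8 libraries and after GC correction, but not without VEH replicate 3. The shares that rose were 13.9, 16.7 and 25% in the 3 fits, beside 12.8, 15.8 and 7.09% of all members. Srsf2 was at 36.7, 46.4, 30.7 and 35.3 CPM in VEH and 52.6, 53.1, 50.7 and 62.8 CPM in BAY with no overlap (log2 fold change 0.57, SE 0.14, adjusted P = 0.275). Hnrnpm and Srsf4 had 0.57 (adjusted P = 0.334) and 0.49 (adjusted P = 0.426), with 1 or more VEH libraries inside the BAY range. Cirbp, a cold-inducible RNA-binding protein that also follows the clock, had 0.61 (adjusted P = 0.409).

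**Figure D4:**
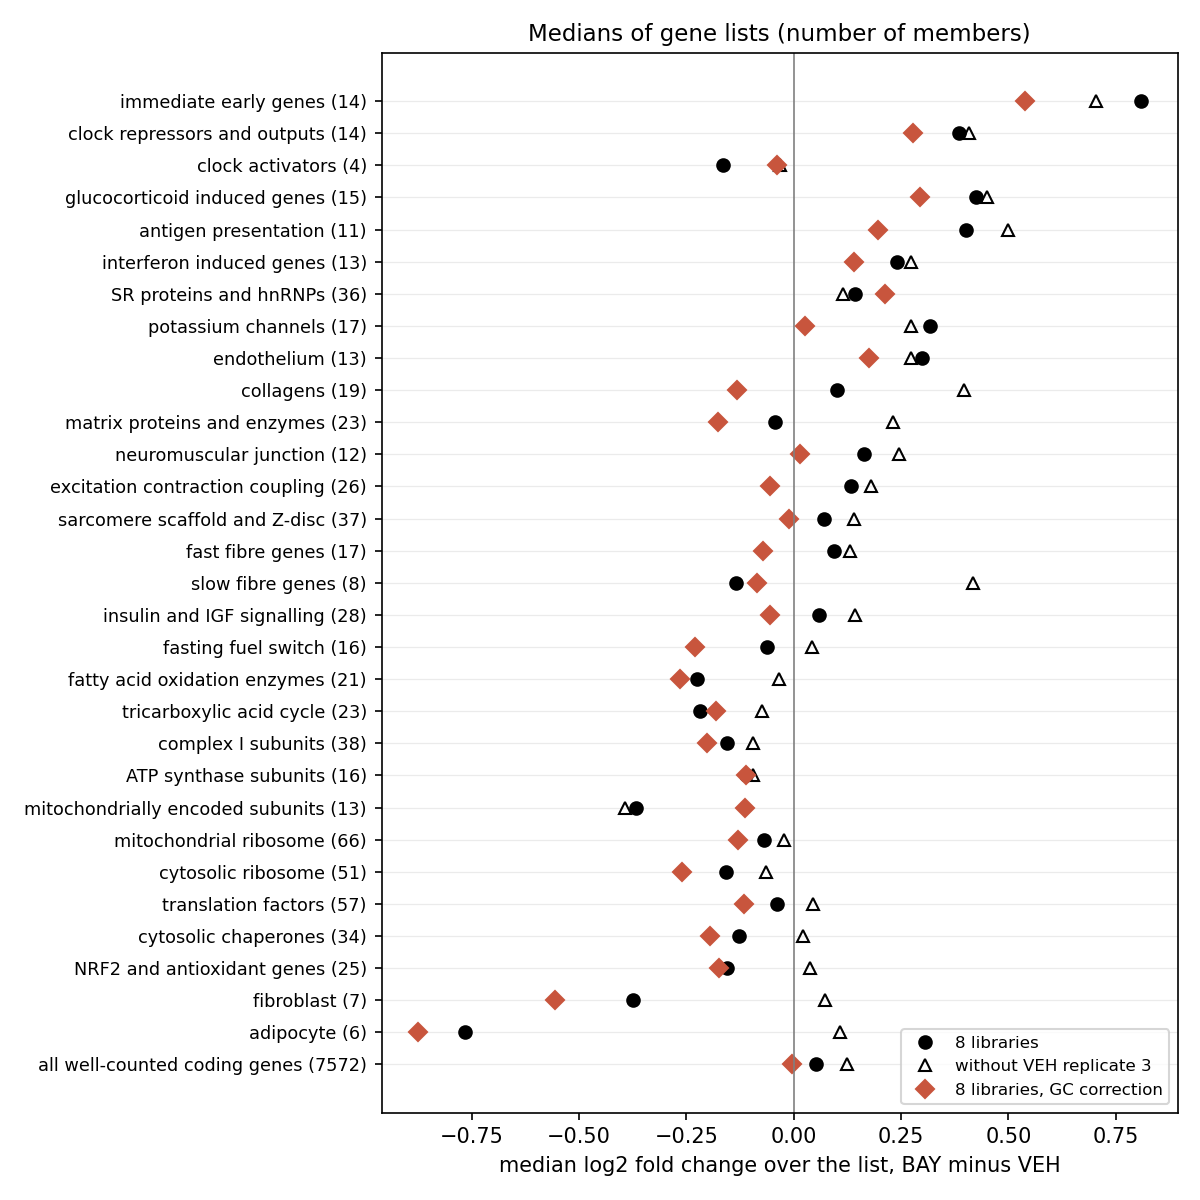
Median log2 fold change (BAY minus VEH) over the members of 30 lists and of all well-counted coding genes, with all 8 libraries (black points), without VEH replicate 3 (triangles) and after GC correction (red). Immediate early genes (0.81, 0.70 and 0.54) lie highest of the lists shown in each fit, and fatty acid oxidation moves from -0.23 to -0.03 without VEH replicate 3.

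Of the lists in the plot of list medians, some changed the sign of their median with GC correction, which moved the median of all members from 0.05 to -0.00. The collagens went from 0.10 to -0.13, excitation-contraction coupling from 0.13 to -0.05, the sarcomere scaffold and Z-disc from 0.07 to -0.01, fast fibre genes from 0.09 to -0.07, and insulin and IGF signalling from 0.06 to -0.05, so no direction is given for these lists. With all 8 libraries the shares of their members that rose were 15.8, 15.4, 8.11, 0 and 17.9% in that order, beside 12.8% of all members.

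Insulin and TGF-beta signalling held members that rose and members that fell. Of 28 members of insulin and IGF signalling 5 rose and 2 fell (17.9 and 7.14%, beside 12.8 and 4.33% of all members, median 0.06). Irs2, the docking protein under the insulin receptor, was at 25.4, 43.5, 36.0 and 30.4 CPM in VEH and 55.9, 43.2, 82.6 and 59.9 CPM in BAY, and BAY replicate 2 was just under VEH replicate 2 (log2 fold change 0.83, SE 0.20, adjusted P = 0.275). Igfbp7, a secreted binding protein, had 0.57 (adjusted P = 0.448).

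Of 24 members of myostatin, TGF-beta and BMP signalling 4 rose and 3 fell (16.7 and 12.5%, beside 12.8 and 4.33% of all members). Without VEH replicate 3, 6 rose and 1 fell (25 and 4.17%, beside 15.8 and 2.01%), and after GC correction 2 rose and 1 fell. Smad6 and Smad7 code for inhibitory Smads and Id1 for a classical BMP target. Smad6 was at 3.03, 9.06, 7.02 and 6.80 CPM in VEH and 14.2, 12.2, 11.9 and 11.6 CPM in BAY (log2 fold change 1.05, SE 0.28, adjusted P = 0.295), Id1 had 0.64 (adjusted P = 0.334) and Smad7 0.49 (adjusted P = 0.311). In none of the 3 did the groups overlap. Mstn, myostatin itself, which limits muscle mass, was at 23.98, 25.4, 24.6 and 22.3 CPM in VEH and 19.9, 20.1, 19.1 and 13.3 CPM in BAY, with every BAY library under every VEH library (log2 fold change -0.43, SE 0.15, adjusted P = 0.395). After GC correction Mstn had -0.20 and Smad7 0.21, and neither passed, while Smad6 (0.71) and Id1 (0.46) still rose.

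Among genes of muscle atrophy and FoxO, 2 of 17 members rose and 3 fell. The share that rose, 11.8%, was near the 12.8% of all members, and 17.6% fell, beside 4.33%. Eda2r, a receptor tied to muscle wasting, had -0.83 (adjusted P = 0.378), and Usp14, a deubiquitinase on the proteasome, had -0.83 (adjusted P = 0.295) with no overlap. The proteasome list held 1 that rose and 3 that fell of 33 (3.03 and 9.09%), and without VEH replicate 3 0 and 0.

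In the contractile apparatus few members passed the test. Of 17 fast fibre genes 0 rose and 0 fell (median 0.09). Myh4, the heavy chain of the fastest fibres and one of the most abundant messages, was between 60168 and 84146 CPM in VEH and between 65909.6 and 118579.9 CPM in BAY, and the exact permutation test gave P = 0.400. Of 8 slow fibre genes 1 rose, Myl3, a slow light chain, at 11.1, 9.20, 11.1 and 12.6 CPM in VEH and 14.2, 15.5, 15.0 and 15.3 CPM in BAY (log2 fold change 0.45, adjusted P = 0.348). After GC correction Myl3 had 0.28 and did not pass. The slow list's median changed from -0.14 to 0.42 without VEH replicate 3.

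In the sarcomere scaffold 3 of 37 members rose and 0 fell. Tcap (telethonin), which caps titin at the Z-disc, was at 592, 742, 654 and 654 CPM in VEH and 896, 890.1, 894 and 1268 CPM in BAY (log2 fold change 0.57, adjusted P = 0.324), and Obsl1 had 0.70 (adjusted P = 0.295). In excitation-contraction coupling 4 of 26 rose and 1 fell, with junctophilin 2 (Jph2) at 0.42 and Jsrp1 at 0.39. All 4 genes are rich in GC (57.5 to 62.6%), and none of them passed after GC correction (log2 fold changes of 0.21, 0.32, 0.07 and 0.12). No member of the sarcomere list rose then.

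At the neuromuscular junction 2 of 12 members rose (16.7%, near the 12.8% of all members), with a median of 0.16. After GC correction 1 rose (median 0.01), and none did when VEH replicate 3 was left out as well. Agrin (Agrn), whose nerve-derived form clusters acetylcholine receptors, was at 9.31, 18.1, 10.3 and 13.6 CPM in VEH and 23.4, 18.9, 22.3 and 17.2 CPM in BAY, with VEH replicate 2 inside the BAY range (log2 fold change 0.71, SE 0.20, adjusted P = 0.311). Ache, the acetylcholinesterase of the synaptic cleft, had 0.47 (adjusted P = 0.466), and did not pass after GC correction (0.17). None of the 8 members of the denervation response rose or fell with all 8 libraries, and 1 rose without VEH replicate 3.

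Of 17 potassium channel genes 4 rose and 1 fell (23.5 and 5.88%, beside 12.8 and 4.33% of all members, median 0.32). Without VEH replicate 3, 7 rose and 0 fell (41.2 and 0%, beside 15.8 and 2.01%). Kcna5 was at 5.12, 7.11, 5.61 and 6.32 CPM in VEH and 11.2, 7.67, 10.97 and 13.2 CPM in BAY with no overlap (log2 fold change 0.81, SE 0.20, adjusted P = 0.275). Kcnn2, a calcium-activated channel, had 0.62 (adjusted P = 0.305), and Kcnc1, a fast-closing channel, 0.56 (adjusted P = 0.275). After GC correction the list's median was 0.03, and 3 rose and 2 fell (17.6 and 11.8%, beside 7.09 and 7.07% of all members). Kcna5 and Kcnn2 still rose then (0.62 and 0.66), and Kcnc1 (0.28) did not pass.

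Endothelial markers gave 8 that rose of 13 members (61.5%, beside 12.8% of all members, median 0.30), and 7 without VEH replicate 3 (53.8%, beside 15.8%). Egfl7, a secreted guide of vessel growth, was at 19.2, 27.7, 19.4 and 31.5 CPM in VEH and 40.9, 37.4, 39.1 and 34.9 CPM in BAY, with no overlap (log2 fold change 0.67, adjusted P = 0.275). Robo4 and Esam, both at endothelial junctions, had 0.60 (adjusted P = 0.404) and 0.48 (adjusted P = 0.379). All 15 markers summed to 517 to 588 CPM in VEH and 604 to 712 CPM in BAY. After GC correction 1 of the members rose, Egfl7 (0.45), and 1 fell (7.69% in each direction, near the 7.09 and 7.07% of all members).

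The counts for matrix genes differed with and without VEH replicate 3, in which fibroblast and tendon markers were highest, and the part of those cells in them was not tested. Of 19 collagens 3 rose with all 8 libraries (median 0.10) and 6 without it (median 0.40), and none fell in either. Of 23 other matrix members 4 rose (17.4%, beside 12.8% of all members, median -0.04) and 8 without it (median 0.23). Col7a1, the collagen of anchoring fibrils, was at 9.54, 24.5, 13.7 and 16.3 CPM in VEH and 32.1, 29.2, 21.3 and 42.4 CPM in BAY (log2 fold change 1.00, adjusted P = 0.295, and 0.64 after GC correction, no longer called), and Col24a1, a fibrillar collagen, had 0.87 (adjusted P = 0.295). Ccn1, a matricellular protein that behaves as an immediate early gene, was at 18.4, 19.4, 19.8 and 20.5 CPM in VEH and 38.4, 31.6, 39.2 and 25.4 CPM in BAY with no overlap (log2 fold change 0.77, SE 0.15, adjusted P = 0.206). The 7 fibroblast markers among the members held none that rose or fell in either fit, with medians of -0.37 and 0.07. Tnc, a matrix protein at 2.57 CPM on average, was under the level limit.

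Of the AhR pathway itself, 4 of 9 genes in the table were members. Arnt, the partner of AhR in the nucleus, was at 33.3, 42.5, 41.1 and 32.6 CPM in VEH and 44.7, 31.6, 37.1 and 37.3 CPM in BAY (log2 fold change 0.01, adjusted P = 0.998). Tiparp, a target that turns the receptor off, had -0.35 (adjusted P = 0.630). Ptges3, the HSP90 cochaperone p23 that sits in the resting AhR complex, fell with -0.53 (adjusted P = 0.437) and did not pass without VEH replicate 3 (-0.33). Ahr averaged 3.19 CPM, so the drug's own target was under the level limit in this muscle.

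Some calls came and went with VEH replicate 3. Tbc1d4 (AS160; ENSMUSG00000033083, chromosome 14, 101679796 to 101846628), which holds the glucose transporter GLUT4 inside the cell until insulin acts, was at 19.9, 21.5, 102 and 24.3 CPM in VEH and 16.9, 10.3, 16.5 and 18.6 CPM in BAY. No BAY library reached a VEH library, yet most of the difference came from 1 value, and the log2 fold change of -1.08 (SE 0.41, adjusted P = 0.426) became -0.52 without it, which still passed the test but not the 2-fold limit. Plin1 had -2.13 (adjusted P = 0.480) and, without the library, -0.99, which did not pass. Its mean of 5.86 CPM, which made it a member, was itself set by VEH replicate 3, and 111 members would lie under 5 CPM by the other 7 libraries.

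Pex13, a peroxisome import factor, had its lowest value in BAY replicate 4. It was at 7.45, 6.97, 11.01 and 5.96 CPM in VEH and 5.37, 4.73, 5.93 and 1.12 CPM in BAY, with a log2 fold change of -1.08 (adjusted P = 0.455) and -0.91 without VEH replicate 3. B3galt2 went from -1.04 to -0.74 and the gene model Gm44505 from 1.11 to 0.78, and none of the 3 passed without that library. In the other direction Sik1, a kinase that cAMP induces, had 0.94 with and 1.02 without it, and Aatk had 0.83 and 1.10. These genes, Btg2 and H2-Q6 were among the 5 members called only when it was left out. Plin1, Pex13, B3galt2 and Gm44505 were all the members called with it whose P was over 0.05 without it. The remaining members called lower, named to complete the set, were Septin2 (the entry ENSMUSG00000116048, without a transcript of known GC content), Tmem267, Lars2, Vbp1 and Gm20716.

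Over the 53 function lists, which held 997 members, 32 had a median under that of all members with all 8 libraries, 31 without VEH replicate 3 and 41 after GC correction. Leaving out the library moved 5 lists across the members' median, and GC correction moved 11. Of the 26 members called higher, 18 were also called without VEH replicate 3 and 14 with GC correction. Of the 11 called lower, 6 and 5 were.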

How the data were processed

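TA muscle of 4 VEH and 4 BAY mice was sequenced as polyadenylated RNA in stranded libraries. According to the submitters' processing notes, reads were aligned with STAR 2.7.8a to mm39 in Partek. The authors assigned reads to genes by an expectation-maximization step, which splits reads shared by near-identical genes, scaled them to counts per 1000000 (CPM) and deposited log2 values of CPM plus an offset, 0.0004 as the values show. CPM here is 2 to the deposited log2 value, less the offset. Of the low values, 81.4 to 83.5% per library were whole multiples of the worth of 1 read (within 0.02), which gave the depths. Counting error only is covered by such depths.

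The deposited log2 values of all 21011 genes were compared with limma 3.58.1 (R 4.3.3) (two-sided, its variance prior following a trend with the mean, no covariates), and P values were adjusted over all genes by Benjamini-Hochberg. Single genes were also compared with an exact two-sided permutation test, whose smallest P for 4 against 4 is 0.0286. The fit was tested on simulated data. The libraries came from separate mice.

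Members and gene lists were chosen with earlier results of these data known, so no list was tested as a set and no list is independent evidence. Genes were named as follows: the 12 called members without overlap that differed most in each direction (3 met this for lower), up to 4 members per list with P under 0.05 with and without VEH replicate 3, and otherwise up to 2 of the highest level, all members of the immediate early, clock repressor and AhR lists with P under 0.05, up to 8 members called only with or only without VEH replicate 3, and Ahr, Fos and Tnc. Some genes that this rule names are not reported here. Clock, Tiparp, Hadha and Klf15, and the names that complete the called sets, were added.

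The GC correction subtracted from each library a lowess curve (a span of 0.2) of the members' deviations from their gene means on the GC content of the longest transcript of GENCODE on GRCm39. Genes without such a transcript were given the members' median GC content. The GC correction and the further fits without VEH replicate 3 were chosen after seeing the data. Other alternatives were another offset, median centring, quantile normalization, voom on recovered reads, array weights, no trend, other level limits, a replicate block and leaving out each library. Bone libraries were not used here.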

Additional observations from a re-analysis of the deposited data

Results flagged for a closer look

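In each group of 4 libraries, Dixon's test asks whether 1 value lies apart from the other 3, and chance flags about 1 group in 20. With 92 named genes looked at in each group, some flags can be due to chance alone. Plin1 was named because its call depended on VEH replicate 3, so its flag follows in part from that choice. Among the named genes, VEH replicate 3 lay apart from the other VEH libraries for Tbc1d4 at 102 CPM, Pik3r1 at 87.3 CPM, Plin1 at 37.9 CPM and Hadha at 206 CPM, all on the high side, and for Prune2 at 4.53 CPM and Col24a1 at 5.18 CPM on the low side. It was also apart in the mean log2 level of the fatty acid oxidation enzymes, at 6.05. VEH replicate 1 was apart for Sik1 at 7.22 CPM, on the low side.

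Among the BAY libraries, replicate 2 lay apart and low for Per1 at 41.7 CPM, for Cebpd at 6.51 CPM and for the mean log2 level of the glucocorticoid-induced genes at 5.19. BAY replicate 4 lay apart for Pex13 at 1.12 CPM and Mstn at 13.3 CPM, both low, and for Tcap at 1268 CPM, high. Without BAY replicate 2, 40 members were called higher in place of 26.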

How the results depend on the processing

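The 26 members called higher with all 8 libraries became 14 with log2(CPM + 1), 14 with GC correction (14 with the replicate block added), 13 with a level limit of 10 CPM and 55 with one of 2 CPM. The 11 called lower became 6 with array weights, 4 without a trend, 6 at 10 CPM and 20 at 2 CPM. At P under 0.05 the 966 higher became 1587 with array weights, 569 without a trend and 537 with GC correction, and the 328 lower became 791 with median centring, 834 with quantile normalization, 186 with array weights, 115 without a trend and 535 with GC correction. Without VEH replicate 3, the 23 called higher became 13 with centring, 11 with GC correction, 9 at 10 CPM and 62 at 2 CPM, and the 6 called lower became 3 with log2(CPM + 1). The causes were not tested, apart from the level limits, which change how many genes are counted.

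Leaving out 1 library at a time gave 20 (without VEH replicate 1 or without BAY replicate 4) to 40 (without BAY replicate 2) called higher, 5 (without BAY replicate 4) to 19 (without VEH replicate 4) called lower, 532 (without VEH replicate 1) to 1195 (without VEH replicate 3) higher at P under 0.05 and 152 (without VEH replicate 3) to 535 (without VEH replicate 4) lower, with 182 lower without BAY replicate 4.

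Same-numbered VEH and BAY libraries came from different mice, and their deviations from the group means correlated at -0.08, -0.20, 0.00 and -0.04. Differently numbered pairs ran from -0.158 to 0.205. Such values cannot show whether same-numbered libraries shared a day or a batch, and this was not tested. With the replicate number as a block, 748 members were higher and 355 lower at P under 0.05, and 26 and 11 were called. The block with GC correction gave 449 higher and 453 lower.

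Of 87 named genes with P under 0.05, 50 stayed on their side of it under every alternative. Arnt, near 0 with all 8 libraries, changed sign with centring (-0.0315), quantile normalization (-0.0389) and GC correction (-0.0096, also with the block), and leaving out 1 library gave -0.0736 to 0.0928. With 6134429 to 9260768 reads on genes, a member at 5 CPM rested on 30.7 to 46.3 reads per library. The smallest change that could be seen at that level was not tested, so small changes of such genes may have been missed.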

Other observations

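Some of the other function lists are given here, and the rest are not reported. They are to be read beside the shares of all members, of which 12.8% rose and 4.33% fell with all 8 libraries and 15.8 and 2.01% without VEH replicate 3. Of 27 members of glycolysis and glycogen breakdown, 0 rose and 2 fell at an unadjusted P under 0.05, with and without VEH replicate 3. Of 66 proteins of the mitochondrial ribosome, 1 rose and 5 fell with all 8 libraries, and 4 rose and 1 fell without that library. Cytosolic chaperones gave 2 that rose and 5 (14.7%) that fell of 34, and 3 and 1 without it. Of 25 genes of NRF2 and antioxidant defence 2 fell and 0 rose, and of 19 of the endoplasmic reticulum 1 fell and 0 rose. Targets of p53 gave 1 that rose and 4 (30.8%) that fell of 13, and 1 and 2 (15.4%) without that library.

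Fat synthesis changed with VEH replicate 3. Of 17 members of fatty acid and triglyceride synthesis 3 rose (median log2 fold change -0.28) with all 8 libraries, 5 rose (median 0.21) without it, and none rose after GC correction of all 8. In these counts none fell. Of 21 genes of the dystrophin complex 5 rose and 1 fell, and after GC correction 1 and 2. Of 25 genes of autophagy and lysosome 3 rose (12%, near the 12.8% of all members) and 2 fell. Without VEH replicate 3 these counts were 3 and 0, and after GC correction 2 and 5. Of the 6 adipocyte markers among the members 1 rose and 1 fell with all 8 libraries, and none did without VEH replicate 3. Satellite cell markers were all under the level limit.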
